A study of Mus musculus with 8 samples.

Results

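D7Ertd143e is the long noncoding RNA that hosts the miR-290 cluster, and its locus was followed here in mouse embryonic stem cells (mESCs) with and without morphine. The locus was taken as the row of the RNA-Seq count table whose most frequent gene name is D7Ertd143e, 1 of 44396 loci in all, 40846 of which carry a name. It was picked with the difference between control and morphine libraries already known, so that difference is described below and not tested. The cells were Oct4-GFP mESCs, which express GFP under the Oct4 promoter and were grown feeder-free on gelatin with LIF and 2i (inhibitors that hold cells in the naive state). Control cells received NaCl solution and treated cells 10 µM morphine, both for 24 h, and 2 RNA-Seq and 2 H3K27me3 ChIP-Seq libraries were made per condition, 8 in all. All cells carried the Oct4-GFP reporter. The ChIP-Seq duplicates are described as biological replicates. The RNA-Seq duplicates are not said to come from separate cultures, so the spread behind the RNA p-values below may be technical.

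MicroRNAs (miRNAs) are cut from longer primary transcripts by Drosha and Dgcr8, trimmed by Dicer1 and loaded onto Argonaute proteins, where the seed near the 5′ end pairs with sites in the 3′ UTRs of target mRNAs and lowers their output. The miR-290 cluster gives some of the most abundant miRNAs of mESCs. Its members with the AAGUGC core are known to favour fast passage through the cell cycle by repressing inhibitors such as Cdkn1a, Rbl2 and Lats2, and its transcription depends on pluripotency factors. The RNA-Seq libraries were made from poly(A) RNA, so the counts report the host transcript, and the mature miRNAs themselves were not measured.

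The locus lies on the plus strand of chromosome 7 of mm10, at chr7:3218784-3221015, and spans 2232 bp with a GC content of 48.2%, against a median of 49.9% over the tested loci. RefSeq (build GRCm38.p6, with the same coordinates as mm10) lists 17 mature miRNAs of the cluster that could be matched, 13 on the strand of D7Ertd143e and 4 on the opposite strand. The arm miR-292a-3p was not matched. Of the 13, 5 carry AAGUGC at bases 2 to 7. The mature sequences of the matched 3p arms on this strand are shown because the family is defined by this seed; bases 2 to 8 are in capitals, 5′ to 3′.
miR-290a-3p: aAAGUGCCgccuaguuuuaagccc
miR-291a-3p: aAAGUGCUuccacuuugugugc
miR-291b-3p: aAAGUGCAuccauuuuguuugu
miR-293-3p: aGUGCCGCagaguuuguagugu
miR-294-3p: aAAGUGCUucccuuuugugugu
miR-295-3p: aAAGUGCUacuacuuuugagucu

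Among these, miR-291a-3p, miR-294-3p and miR-295-3p share the whole seed AAGUGCU. The seeds of miR-290a-3p (AAGUGCC) and miR-291b-3p (AAGUGCA) differ from it in the last base alone, and miR-293-3p reads GUGCCGC. On the 5p arms, miR-290a, miR-292a and miR-293 share CUCAAAC, and miR-291a and miR-291b share AUCAAAG. All matched plus-strand miRNAs except the miR-290a pair lie inside the locus. The Mir290a hairpin (chr7:3218626-3218708) ends 75 bp before the locus starts, so the annotated start of D7Ertd143e falls between the first and the second miRNA gene of the cluster.

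**Figure D1:**
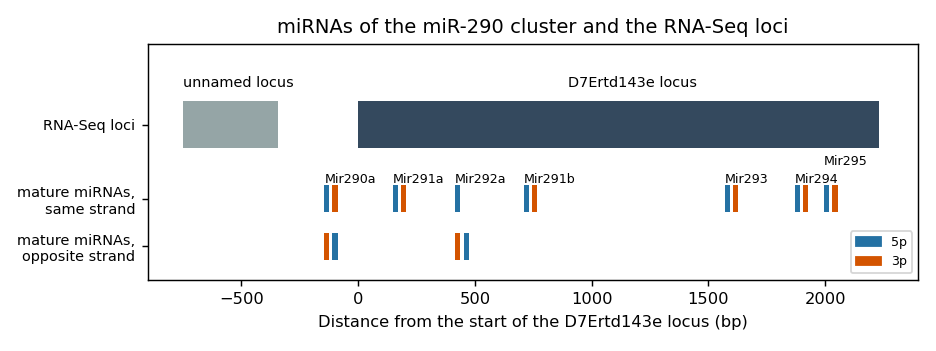
The horizontal axis is the distance from the start of the D7Ertd143e locus in bp, and bars show the RNA-Seq loci and the mature miRNAs by strand, with 5p arms in blue and 3p arms in orange. The miR-290a pair lies before the start of the locus, and the unnamed locus of 408 bp lies farther before it.

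The 300 bases around the annotated start, from 250 before it to 50 after (chr7:3218534-3218833, plus strand, GRCm38.p6), are shown because they hold the first miRNA of the cluster. Capitals mark miR-290a-5p and miR-290a-3p.
D7Ertd143e start: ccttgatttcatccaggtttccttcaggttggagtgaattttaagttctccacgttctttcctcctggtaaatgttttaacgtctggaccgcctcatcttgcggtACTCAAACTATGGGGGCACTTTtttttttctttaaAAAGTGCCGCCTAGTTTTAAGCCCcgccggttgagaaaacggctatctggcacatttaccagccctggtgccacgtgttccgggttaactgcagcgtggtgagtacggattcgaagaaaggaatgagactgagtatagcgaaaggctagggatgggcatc
This window contains the E-box CACGTG, the motif that Myc binds, 39 bases before the start, and 7.15% of the 32851 RefSeq promoter windows of the same length hold it on either strand. The octamer ATTTGCAT, which Pou5f1 binds and 1.74% of all windows hold, was not found in these letters. Neither was the TATA box form TATAAA, present in 13.6% of windows, nor the form TATATA, present in 5.67%. A window of the same length, chr7:3217784-3218083, surrounds the start of an unnamed plus-strand locus described below. It is shown because that locus lies before all the matched miRNAs, and TATATA is in capitals.
Unnamed locus start: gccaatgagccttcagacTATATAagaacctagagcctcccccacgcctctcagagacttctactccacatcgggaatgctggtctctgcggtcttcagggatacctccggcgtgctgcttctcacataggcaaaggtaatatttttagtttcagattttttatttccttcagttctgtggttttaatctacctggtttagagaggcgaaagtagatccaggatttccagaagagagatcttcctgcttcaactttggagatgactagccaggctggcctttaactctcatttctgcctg
The TATATA match lies 232 bases before the start of the unnamed locus in this window, and the E-box, the octamer and the other TATA form were not found. These matches are descriptions of the sequence, not evidence of binding.

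D7Ertd143e was read by 367 and 382 counts without morphine and by 154 and 202 with it, out of totals between 25081266 and 29531096 counts per library. After TMM normalization this was 13.4 and 12.98 CPM, counts scaled to a common total, in control cells against 6.09 and 7.18 CPM with morphine. Both morphine libraries lay below both control libraries, and 5.80 CPM separated the lowest control from the highest morphine library. Separation in this direction, by a gap of any size, was common across the table. Lower morphine values without overlap were found for 26.8% of the 20350 tested loci (52.7% in either direction).

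Control cells averaged 13.2 ± 0.270 CPM (SD, n = 2) and treated cells 6.63 ± 0.769 CPM (SD, n = 2), so morphine-treated cells held 50.4% of the control level. The log2 fold change of the edgeR fit was -0.98 (standard error 0.11), against a median of 0.0013 over all tested loci and a pooled SD between replicates of 0.119 on the log2 CPM scale. Of the 20350 tested loci, 151 had a lower log2 fold change. At an FDR of 0.05 (edgeR's quasi-likelihood test), 309 loci or 1.52% were called, 125 higher (0.614%) and 184 lower (0.904%), and 12 of the 309 had a lower log2 fold change than D7Ertd143e. The split by direction depended on scaling, with 281 higher and 234 lower under total counts alone and 52 higher and 30 lower once length and GC trends were removed.

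Counting error alone gives a coefficient of variation of 5.22% and 5.12% for the controls, 8.06% and 7.04% with morphine. Omitting any 1 library gave log2 fold changes from -1.11 to -0.88, the smallest in size when morphine replicate 1 was omitted. That library mattered more for the table as a whole, since without it 13 loci were called in place of 309.

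Per length, D7Ertd143e stood above the middle of the tested loci without morphine and just below it with morphine. Its level was 5.99 and 5.81 CPM per kb in the control libraries, higher than 59.9% and 59.6% of the tested loci. After morphine it was 2.73 and 3.21 CPM per kb, higher than 46.9% and 49.5%. The median over all tested loci was between 3.27 and 3.36 CPM per kb in the 4 libraries. In bulk RNA, less RNA per cell and fewer cells that express the transcript cannot be told apart.

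**Figure D2:**
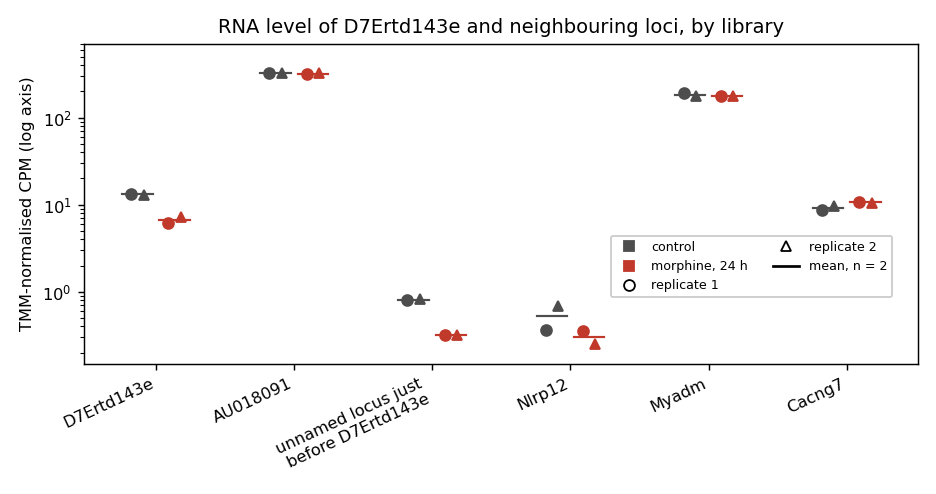
Normalised CPM on a log axis for D7Ertd143e and 5 neighbouring loci, with grey symbols for control and red symbols for morphine libraries, circles for replicate 1, triangles for replicate 2 and lines for the means (n = 2). D7Ertd143e lies at 13.4 and 12.98 CPM in the control and at 6.09 and 7.18 CPM after morphine, while AU018091 and Myadm overlap between conditions.

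The transcripts on either side of the cluster were then compared, to ask whether the lower level extended beyond it. The table holds 18 other loci within 200 kb, of which 12 passed the filter on low counts. None of the 12 was called at an FDR of 0.05 by edgeR's quasi-likelihood test, and 1 had an unadjusted p under 0.05, as did 20.5% of all tested loci. DESeq2 gave an adjusted p to 3 of the 12 (AU018091, MSTRG.14396 and Myadm) and called 0 of them. In 5 of the 12 the values of control and treated libraries were fully separate, 2 higher and 3 lower after morphine (52.7% of all tested loci).

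The 1 neighbour with a p under 0.05 was the closest tested locus on the same strand. It is an unnamed assembled transcript (MSTRG.14397, chr7:3218034-3218441, 408 bp) that ends 342 bp before the D7Ertd143e locus, with the Mir290a hairpin between them. It had 22 and 24 counts in control cells against 8 and 9 counts with morphine. All morphine values were below all control values, a difference of -1.33 on the log2 scale with a standard error of 0.37. The adjusted p was 0.0819 in edgeR's quasi-likelihood test (unadjusted p = 0.00359), 0.0279 without the count filter and 0.0473 with the replicate number as a block, so its call depended on the fit. Whether this locus and D7Ertd143e belong to the same primary transcript was not tested. Its p-values may therefore not be independent of the choice of D7Ertd143e.

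Levels per length placed the unnamed locus under D7Ertd143e in every library. It had 1.98 ± 0.0251 CPM per kb (SD, n = 2) in the control and 0.779 ± 0.00595 CPM per kb (SD, n = 2) after morphine, against 5.90 ± 0.121 and 2.97 ± 0.344 CPM per kb for D7Ertd143e. Of the counts on both loci together, the unnamed one took 5.66% (95% exact Clopper-Pearson interval 3.58 to 8.44%) and 5.91% (3.82 to 8.67%) in the control libraries. After morphine it took 4.94% (2.16 to 9.50%) and 4.27% (1.97 to 7.94%). Both shares after morphine lay below both control shares (4.60 ± 0.48% against 5.78 ± 0.18%, SD, n = 2 each), each within the counting intervals of all the other libraries. The intervals cover counting error only, and the difference was not tested, since the share contains the D7Ertd143e counts known when the locus was picked. This share does not depend on the scaling between libraries, and it was computed after the counts had been seen.

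The miRNA genes of the region that were counted separately, Mir290a, Mir290b and Mir292b, collected almost no counts. Mir290a had 1 and 2 counts in control cells against 1 and 0 with morphine. Mir290b, on the opposite strand, had 0 and 1 in the control and 0 in both morphine libraries. Mir292b had 3 and 7 counts in control cells against 0 and 1 with morphine. It lies inside the D7Ertd143e span on the opposite strand, and whether the counting used strand is not stated, so its reads and those of the host cannot be told apart. None of these miRNA genes passed the filter.

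Nlrp12, which encodes an intracellular receptor of the NLR family, begins its count-table span 494 bp after the D7Ertd143e locus and runs on the opposite strand. The longer of its 2 overlapping rows had 10 and 20 counts in control cells against 9 and 7 with morphine. The log2 fold change was -0.80 (SE 0.47, adjusted p = 0.361), and the shorter row, which shares reads with it, gave -0.80 (standard error 0.49, adjusted p = 0.385). The counts are low, and the difference did not pass the test.

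The abundant flanking genes had log2 fold changes near 0. AU018091, 49580 bp before the locus, had 8819 and 9639 counts in control cells against 7955 and 9047 with morphine (log2 fold change -0.03, standard error 0.04, adjusted p = 0.766). Myadm, which encodes a membrane protein and lies 68022 bp after the locus, had 5294 and 5166 counts in control cells against 4451 and 5037 with morphine (-0.05, standard error 0.05, adjusted p = 0.626). The normalised values of both overlapped between conditions.

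Farther away lie Cacng7 and Cacng8, auxiliary subunits of AMPA-type glutamate receptors. Cacng7 had 239 and 286 counts in control cells against 275 and 292 with morphine, higher in both morphine libraries after normalization (log2 fold change 0.20, standard error 0.10, adjusted p = 0.285). Cacng8 had 25 and 21 counts in control cells against 33 and 25 with morphine (0.43, standard error 0.31, adjusted p = 0.477). The 4 other unnamed loci had log2 fold changes of -0.02 (MSTRG.14394), 0.10 (MSTRG.14396), 0.18 (MSTRG.14402) and -0.36 (MSTRG.14405), and none passed the test.

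H3K27me3, the repressive mark set by PRC2, was looked for around the locus in the peaks that the authors called per library. No peak overlapped D7Ertd143e in any of the 4 libraries. The nearest one lay 84.0 and 98.2 kb away without morphine, and 171 and 84.2 kb away with it. Most tested loci had a nearer peak, 74.1% and 82.4% of them by the control lists, 85.7% and 78.3% by the morphine lists, and between 21.7% and 23.4% were overlapped by one.

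Within 200 kb there were 2 and 3 peaks in control cells against 2 and 3 with morphine. The mean was 2.5 ± 0.707 (SD, n = 2) in both conditions, a difference of 0 (exact permutation test, two-sided, p = 1, where 0.33 is the smallest p that 2 against 2 can give). A single site was marked in all 4 libraries, at the end of Cacng8 and over the small RNA gene Gm23450, about 192 kb after the locus (chr7:3413096-3418267 in control replicate 2). The peak 98.2 kb before the locus was present in the second replicate of each condition. The peak lists hold between 8681 and 13778 peaks and give no read depth, so a missing peak is not a missing mark.

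**Figure D3:**
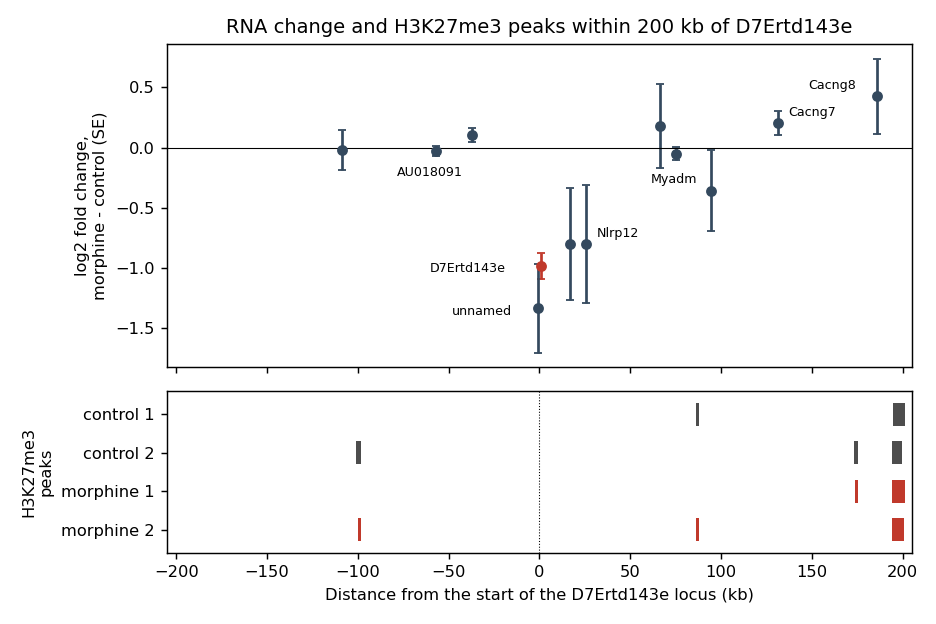
The upper panel shows the log2 fold change (morphine minus control, bars for the standard error) of D7Ertd143e in red and of 11 tested neighbours in dark blue, by distance in kb from the start of the locus, and the lower panel the H3K27me3 peaks of each library. The unnamed locus and both Nlrp12 rows lie near D7Ertd143e in position and below 0, and no peak falls closer than 84.0 kb.

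Known and proposed targets of the miR-290 family were examined next, 11 genes of which all passed the count filter. None was called at an FDR of 0.05 by edgeR's quasi-likelihood test, 5 had an unadjusted p under 0.05, and DESeq2 called 1 of the 7 to which it gave an adjusted p, Lats2, as lower. The log2 fold changes ran from -0.23 to 0.29 with a median of 0.059, and 6 were above 0 and 5 below. Over all tested loci, 1.52% were called, 20.5% had an unadjusted p under 0.05 and the median was 0.0013, and DESeq2 called 10.4% of the 6258 loci with an adjusted p (6.25% lower and 4.14% higher).

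The genes that restrain the cell cycle in this list had values on both sides of 0. Cdkn1a (p21), a CDK inhibitor, had 92.6 and 90.8 CPM in control cells against 103 and 97.4 CPM with morphine (log2 fold change 0.13, standard error 0.05, adjusted p = 0.202). Rbl2, a pocket protein of the retinoblastoma family, had 16.8 and 16.1 CPM in control cells against 16.1 and 18.2 CPM with morphine (0.06, standard error 0.09, adjusted p = 0.754). Lats2, a kinase of the Hippo pathway, had 271 and 253 CPM in control cells against 211 and 235 CPM with morphine (-0.23, standard error 0.06, adjusted p = 0.0625). Cdkn1a and Lats2 were among the 7 of the 11 targets whose values did not overlap between conditions, 3 higher and 4 lower, where 52.7% of all tested loci did not overlap. Wee1, the kinase that inhibits CDK1, had a log2 fold change of -0.09 (adjusted p = 0.432), and Fbxl5, an F-box protein of iron homeostasis, -0.15 (adjusted p = 0.145).

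Among the remaining targets, Tgfbr2, the type II receptor of TGF-beta, had 8.37 and 8.25 CPM in control cells against 10.6 and 9.84 CPM with morphine (log2 fold change 0.29, standard error 0.10, adjusted p = 0.136). Rela, the p65 subunit of NF-kappaB, had 33.3 and 33.9 CPM in control cells against 40.2 and 37.8 CPM with morphine (0.21, standard error 0.06, adjusted p = 0.0958). Both were higher in both morphine libraries and short of the threshold. The apoptosis genes Casp2 and Ei24 gave -0.14 (adjusted p = 0.335) and -0.08 (adjusted p = 0.403). Mbd2, a methyl-CpG binding protein, gave 0.09 (adjusted p = 0.59), and the Wnt inhibitor Dkk1, with 14 to 19 counts per library, gave 0.09 (adjusted p = 0.918).

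Rbl2 is known to restrain the de novo DNA methyltransferases in these cells. Of the 3 genes of that group, none was called by edgeR's quasi-likelihood test, 1 had an unadjusted p under 0.05 and DESeq2 called 1, in both cases Dnmt3l, the catalytically inactive cofactor (1.52%, 20.5% and 10.4% of all loci by these criteria). Dnmt3l had 234 and 245 CPM in control cells against 281 and 270 CPM with morphine, 0.20 on the log2 scale (standard error 0.05, adjusted p = 0.0562 in edgeR). Dnmt3a and Dnmt3b, the enzymes themselves, had log2 fold changes of -0.07 (adjusted p = 0.429) and 0.05 (adjusted p = 0.644).

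The family's targets were also read from sequence. A gene was counted as matched when its longest annotated 3′ UTR held a complement to bases 2 to 8 of an AAGUGC member, or to bases 2 to 7 with an A after it (a 7-mer match). These sites read AGCACTT for the seed shared by miR-291a-3p, miR-294-3p and miR-295-3p, GGCACTT for miR-290a-3p, TGCACTT for miR-291b-3p, and GCACTTA for the shorter match. By this definition Casp2 and Tgfbr2 held 4 matches, Cdkn1a and Rbl2 held 3, and Rela held none. Of the 13456 tested genes with a 3′ UTR, 4296 had a match, and their median log2 fold change was -0.034 against 0.025 for the 9160 without one. Among the matched genes 41.7% had a log2 fold change above 0, compared with 51.3% of all 13456. Those called at an FDR of 0.05 were 87 of the 4296 (2.03%, 26 higher and 61 lower), 151 of the 9160 (1.65%, 82 higher and 69 lower) and 238 of the 13456 (1.77%, 108 higher and 130 lower). For the 1013 genes with an 8-mer match (an A after the match to bases 2 to 8), the median was -0.068.

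Matched genes differed in composition from the rest. Their loci had a median GC content of 48.8%, against 51.5% for genes without a match, and their 3′ UTRs a median length of 2273 against 765 bases. When trends with locus length and GC content were removed from each library, the median log2 fold change was -9.11e-05 for matched genes, -0.00971 for those with an 8-mer match and 0.0032 for all. D7Ertd143e itself kept a log2 fold change of -0.97 in that fit. The genes of a class are not independent replicates, and these medians describe the 4 libraries without a test.

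**Figure D4:**
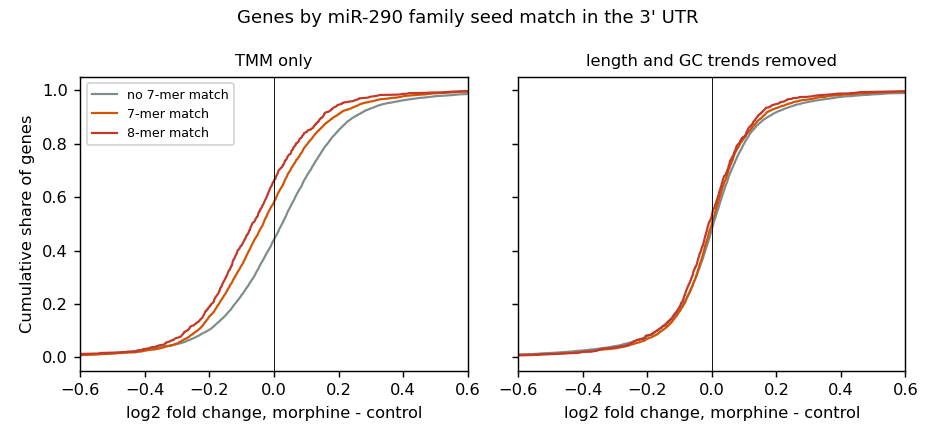
Cumulative share of genes (vertical axis) by log2 fold change, morphine minus control (horizontal axis), for genes with no match in grey, a 7-mer match in orange and an 8-mer match in red, with TMM scaling alone on the left and with length and GC trends removed on the right. The matched curves lie to the left of the grey one in the left panel, with medians of -0.034 and -0.068, and close to it in the right panel.

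Upstream of the miRNAs, the factors reported to drive the cluster were compared. Of 9 such genes all were tested and 1 was called, against 1.52% of all tested loci. An unadjusted p under 0.05 was found for 3 of the 9 (20.5% of all tested loci). DESeq2 gave all 9 an adjusted p and called 2, both higher (10.4% of all such loci were called, 4.14% as higher). Myc, a transcription factor of growth, had 47.3 CPM in both control libraries and 57.6 and 55.5 CPM after morphine, and rose by 0.26 on the log2 scale (standard error 0.06, adjusted p = 0.04996 in edgeR's quasi-likelihood test, just under the threshold). It was not called with the length trend removed (log2 fold change 0.22, adjusted p = 0.0673) or with the length and GC trends removed (0.19, adjusted p = 0.125). Nor was it called without control replicate 1 (0.25, adjusted p = 0.110), morphine replicate 1 (0.23, adjusted p = 0.405) or morphine replicate 2 (0.29, adjusted p = 0.0548). It was called by DESeq2 (adjusted p = 0.0312), with the replicate block (adjusted p = 0.0256), without the count filter (0.00754), with RLE scaling (0.0489) or total counts (0.0341), and without control replicate 2 (0.0376). Pou5f1 (Oct4), which marks pluripotent cells, had 1183 and 1272 CPM in control cells against 1507 and 1370 CPM with morphine (0.23, standard error 0.05, adjusted p = 0.0525), and DESeq2 called it as higher. Of the 9 genes, 4 did not overlap between conditions, 3 higher and 1 lower (52.7% of all tested loci did not overlap). Nanog, lower in both morphine libraries, gave -0.12 (unadjusted p = 0.019, adjusted p = 0.158 in edgeR's quasi-likelihood test). Sox2, Tcf7l1, Mycn, Esrrb, Klf4 and Stat3 lay between -0.05 and 0.04. The part of these factors in the difference at D7Ertd143e was not tested. The median of the list was 0.020.

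Of 23 genes that process miRNAs or act with them, 1 was called, against 1.52% of all tested loci. Trim71, an RNA-binding ubiquitin ligase that is itself a known let-7 target, had 161 and 127 CPM in control cells against 110 and 107 CPM with morphine, and fell by 0.41 on the log2 scale (standard error 0.09, adjusted p = 0.0462 in edgeR's quasi-likelihood test). DESeq2 did not call it (log2 fold change -0.41, adjusted p = 0.099), and without control replicate 1 the log2 fold change was -0.23 (adjusted p = 0.0696). Its call was also lost without morphine replicate 1 (-0.43, adjusted p = 0.387) or morphine replicate 2 (-0.39, adjusted p = 0.102), with log2 fold changes near the full one. In the list 18 genes were below 0 and 5 above, the median was -0.093, and 10 had an unadjusted p under 0.05 (20.5% of all tested loci did). Tnrc6b, an Argonaute partner in silencing, had 57.9 and 53.5 CPM in control cells against 42.7 and 48.0 CPM with morphine (-0.30, standard error 0.07, adjusted p = 0.0569). Dicer1 gave -0.20 (adjusted p = 0.0914) and Ago2, the Argonaute that can cleave its targets, -0.22 (adjusted p = 0.0795). DESeq2 called these 3 and the helicase gene Ddx5 as lower, 4 of the 20 genes to which it gave an adjusted p (6.25% of all such loci were called lower). With the length and GC trends removed, edgeR called Trim71 (-0.50, adjusted p = 0.0422) and no other gene of the list. In that fit 0.403% of all tested loci were called, with 30 lower against 184 in the main fit. Drosha and Dgcr8, which make the first cut, both gave -0.04.

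Host transcripts of other miRNAs were listed beside D7Ertd143e. The table held 25 of them, of which 22 were tested, and their log2 fold changes ran from -0.28 to 0.48 with a median of 0.058. None of these was as low as that of D7Ertd143e, which was picked with its difference known, so this order is not a test. For hosts that also encode proteins, such as Smc4 and Srebf2, the counts report the mRNA. Of the 22, edgeR called 2 (1.52% of all tested loci) and 11 had an unadjusted p under 0.05 (20.5% of all tested loci). DESeq2 called 2 of the 11 to which it gave an adjusted p (10.4% of all such loci), Smc4 as lower and Srebf2 as higher, and gave none to Mirg. Mirg, the imprinted host of a large miRNA cluster on chromosome 12, had 22.6 and 24.2 CPM in control cells against 31.4 and 28.9 CPM with morphine, and rose by 0.36 on the log2 scale (standard error 0.07, adjusted p = 0.0423 in edgeR's quasi-likelihood test). Smc4, a condensin subunit gene with miR-15b and miR-16-2 in an intron, had 271 and 263 CPM in control cells against 214 and 234 CPM with morphine, and fell by 0.25 (standard error 0.05, adjusted p = 0.0423). With the length and GC trends removed neither was called (log2 fold change 0.33, adjusted p = 0.0611 for Mirg, and -0.08, adjusted p = 0.325 for Smc4). Without morphine replicate 1 Mirg gave 0.30 (adjusted p = 0.387) and Smc4 -0.19 (adjusted p = 0.398), and without control replicate 1 Mirg gave 0.31 (adjusted p = 0.0757). Mir17hg, which hosts the miR-17 to 92 cluster with a related seed, had 16.1 and 15.05 CPM in control cells against 12.6 and 13.1 CPM with morphine (-0.27, standard error 0.09, adjusted p = 0.108). Srebf2, which encodes a transcription factor of cholesterol synthesis and holds miR-33 in an intron, had 407 and 418 CPM in control cells against 479 and 460.4 CPM with morphine (0.19, standard error 0.04, adjusted p = 0.0554 in edgeR).

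**Figure D5:**
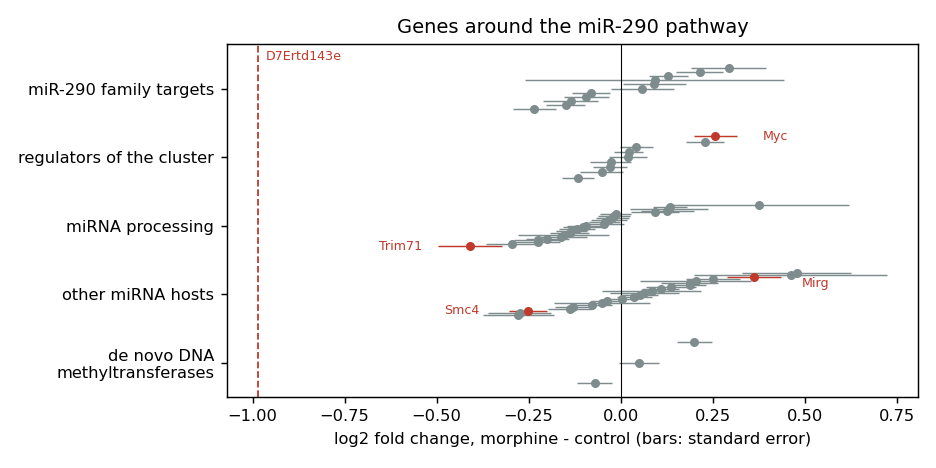
Log2 fold change, morphine minus control (horizontal axis, bars for the standard error), of every tested gene in 5 lists, with genes called at an FDR of 0.05 in red and named. The dashed line marks D7Ertd143e, which was picked with its difference known, at -0.98, to the left of every gene shown.

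The 5 named loci whose pattern over the 4 RNA libraries was most like that of D7Ertd143e, by Euclidean distance between centred log2 CPM values, were Sh3bgr (0.106), Samd5 (0.127), Gm14391 (0.156), AK089008 (0.159) and Apob (0.168). All are expressed at a lower level. Apob, the apolipoprotein of low-density lipoprotein, had 58 and 59 counts in control cells against 27 and 33 with morphine, and the other 4 had 11 to 23 counts in the control and 4 to 12 after morphine. Likeness over 4 libraries with so few counts is a description of the pattern alone.

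The labelled cell type was matched by its markers. The 8 embryonic stem cell markers examined were all expressed, at summed levels of 4748 to 4961 CPM in the 4 libraries. The 4 fibroblast markers summed to 10.3 to 12.4 CPM, the 4 trophoblast markers to 15.7 to 17.4 CPM, the 4 endoderm markers to 14.7 to 17.98 CPM and the 4 mesoderm and neural markers to 19.02 to 20.7 CPM. The sums did not overlap between conditions in 2 of the 5 lists. For the embryonic stem cell list they were 4792 and 4748 CPM in control cells against 4961 and 4809 CPM with morphine. This order rested on Pou5f1, the most abundant member, since without it the other 7 summed to 3609 and 3477 CPM in control cells against 3454 and 3439 CPM with morphine, the opposite order (a sum added after the data were seen). Of the 8 markers 6 had log2 fold changes below 0 and 2 above, with a median of -0.040, and 3 did not overlap between conditions, 1 higher and 2 lower (52.7% of all tested loci did not overlap). None of the 8 was called by edgeR's quasi-likelihood test (1.52% of all tested loci), 2 had an unadjusted p under 0.05 (20.5%), and DESeq2 called 1, Pou5f1 (10.4%). The endoderm sums were 16.2 and 14.7 CPM against 17.1 and 17.98 CPM, and without Gata6, its most abundant member, 6.88 and 6.66 CPM against 7.63 and 7.25 CPM. All 4 endoderm markers had log2 fold changes above 0 (median 0.225), and 3 did not overlap between conditions, all higher (26% of all tested loci). None of the endoderm markers was called by edgeR (0 had an unadjusted p under 0.05), and DESeq2 gave none of them an adjusted p. Members of the 4 lists of other cell types ranged from at most 3 counts in any library (Elf5, Mesp1 and Postn) to 417 to 464 counts for Tfap2c and 387 to 456 for Sox1, and none was at 0 in all 4 libraries. The part of these levels in the difference at D7Ertd143e was not tested.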

How the data were processed

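RNA-Seq (2 control and 2 morphine libraries) and H3K27me3 ChIP-Seq (2 and 2) were taken from the deposited tables, with groups from the sample labels. For RNA, the authors aligned reads of stranded poly(A) libraries to mm10 with HISAT2 (version 2.1.0), assembled transcripts with StringTie (1.3.6) on a UCSC annotation and deposited raw counts per locus from featureCounts (1.6.4), versions as in the submitters' processing notes. Strand use and the treatment of reads with several alignments in counting are not given in the sources used here. For ChIP, the authors aligned with Bowtie2 (2.3.5.1) and called peaks with MACS per library, with 1e-05 as the p-value limit. The deposited score is the negative log10 of that p-value times 10, never below 50. Sample labels and published methods give the antibody under different manufacturers.

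Counts were filtered by filterByExpr, scaled by TMM and tested over 20350 loci in edgeR 4.0.16 (R 4.3.3) by the quasi-likelihood method. Adjustment was by Benjamini-Hochberg, with an FDR of 0.05. The same fit was run on simulated counts with known changes, where some calls were false, so calls near the threshold are uncertain. The locus and all gene lists were chosen with earlier results of these data known. Named genes were D7Ertd143e, tested loci within 200 kb, all targets, called members of the other lists (the 3 largest changes where none was called) and the 5 most alike loci. Of the neighbours, 1 is not reported here. Other list members were named after their values were seen. Of the list genes, 5 were matched by position (80% reciprocal overlap with GENCODE vM21, same strand), since their names do not occur in the table, where 27 name cells hold whole numbers. Mir100hg was matched by an older name. Alternatives were DESeq2 (1.42.0), RLE and total count scaling, no count filter, a replicate block, spline trends (5 degrees of freedom) of length and GC, an FDR of 0.01, other seed definitions, windows and peak thresholds, and leaving out each library. Permutation tests used scipy 1.17.1.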

Additional observations from a re-analysis of the deposited data

How the results depend on the processing

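The log2 fold change of D7Ertd143e kept its direction in every alternative, from -1.11 (without morphine replicate 2) to -0.88 (without morphine replicate 1). Counts of called genes in the lists moved more. Scaling by total counts called 2 regulators of the cluster and gave a median of -0.0138 for seed-matched genes. Without the count filter 1 neighbour, 6 processing genes, 2 regulators, 1 target and 4 other hosts were called. DESeq2 called 4 processing genes, 2 regulators and 1 target. With the length trend removed 0 regulators and 4 other hosts were called and the seed median was -0.00954. With length and GC trends removed there were 0 regulators and 1 other host (Rian), and the median was -9.11e-05. At an FDR of 0.01, 0 processing genes, 0 regulators and 0 other hosts were called. The 8-mer definition gave a median of -0.0675. Leaving out each library gave 0 to 5 processing genes, 0 to 2 regulators, 0 to 1 target, 0 to 4 other hosts and a seed median of -0.0534 to -0.0250. The difference in H3K27me3 peaks (morphine minus control) was -1.5 within 500 kb, -1 for scores of at least 100 and -1 for equal numbers (8681) of strongest peaks, each with p = 0.667 in the exact permutation test, and -0.5 to 0.5 with each library left out. The cause of these shifts was not tested.

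With a replicate block, 1 neighbour, 5 processing genes, 2 regulators, 1 target and 3 other hosts were called, 1128 of 20350 loci in all (5.54%) against 309 (1.52%) without it. Same-numbered libraries did not deviate together (correlation across loci 0.0264), and nothing states that a number marks a shared batch. The numbers were therefore not taken to pair the samples. With 2 libraries per group, this cannot exclude a shared batch. Over all loci, 1657 of 30482 (5.44%) were called without the filter, 312 of 20350 (1.53%) with RLE scaling, 515 of 20350 (2.53%) with total counts, 321 of 20350 (1.58%) with the length trend removed, 82 of 20335 (0.403%) with length and GC trends removed, 24 of 20350 (0.118%) at an FDR of 0.01 and 650 of 6258 (10.4%) by DESeq2. Leaving out a library gave 359 of 21159 (1.7%, control replicate 1), 1619 of 21116 (7.67%, control replicate 2), 13 of 21224 (0.0613%, morphine replicate 1) and 604 of 21159 (2.85%, morphine replicate 2). The 309 were 125 higher and 184 lower, against 281 and 234 with total counts and 52 and 30 with length and GC trends removed.

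Depth limits the low neighbours. The unnamed locus and the 2 Nlrp12 rows, with 7 to 24 counts per library, have standard errors of 0.37 to 0.49 on the log2 scale.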
